A study of Mus musculus with 2 samples.

Results

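Testis isoforms of metabolic enzymes are paralogs of energy metabolism genes that are used by male germ cells in place of, or beside, the form found in other tissues. The 7 genes described here were Cyct, Ldhc, Pgk2, Gapdhs, Slc25a31, Pdha2 and Got1l1, out of 19938 genes named on the array. They were taken as a list of known testis paralogs, with earlier results of these arrays in view, and each was read by 1 probe set that carries its symbol alone. RNA was hybridized to 2 Affymetrix Mouse Gene 1.0 ST arrays from mouse embryonic stem (ES) cells, a pluripotent line grown on gelatin in medium with leukemia inhibitory factor. All cells carried ROSA26-rtTA, the doxycycline-dependent activator, and a TRE-driven transgene, CTCFL-V5-GFP, which encodes a tagged and fluorescent form of CTCFL. CTCFL is a DNA-binding protein related to CTCF that is normally found in male germ cells. For the induced array, GFP-positive cells were sorted after 3 days on doxycycline, and for the non-induced array cells were kept off doxycycline and left unsorted. Whether the cells were 1 clone is not given in the sources used here.

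With 1 array per group there was no replicate, no test was possible, and every value below describes these 2 arrays. Doxycycline, sorting and CTCFL differed together and cannot be told apart. Signals are log2 values after robust multi-array averaging (RMA), and differences are induced minus non-induced. A gene was called when its arrays differed by at least log2 1 and the brighter of them reached a floor of 6.36, the median over the values of all genes. Ctcfl itself was at 9.44 in the induced and 5.99 in the non-induced array. All 10 ES cell markers examined, among them Pou5f1, Nanog and Sox2, were at or above the floor in both arrays, with differences from -0.46 to 0.24. The middle of all gene differences ran from -0.24 (25th percentile) to 0.26 (75th percentile), around a median of 0.013.

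Spermatocytes and sperm rely on these isoforms at several steps of energy supply. In the sperm tail, glycolysis runs through dedicated forms of glyceraldehyde-3-phosphate dehydrogenase (Gapdhs), phosphoglycerate kinase (Pgk2) and lactate dehydrogenase (Ldhc), while the mitochondria of germ cells use a dedicated pyruvate dehydrogenase subunit (Pdha2), ADP/ATP carrier (Slc25a31) and cytochrome c (Cyct). Several of them are autosomal paralogs of genes on the X chromosome, which is silenced during male meiosis. In the annotation used here Pgk1, Pdha1 and Slc25a5 lie on chromosome X, and their testis paralogs Pgk2, Pdha2 and Slc25a31 on chromosomes 17, 3 and 3.

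The DNA upstream of these genes was examined first, as a property that the choice of genes did not use. The 250 bases before the transcription start were taken from RefSeq (GRCm38.p6) for 6 of the 7 testis genes, with 2 starts each for Ldhc and Gapdhs, and for all 10 somatic counterparts. Got1l1 had no entry in that table. Cyct and Cycs are shown because Cyct, and Cycs by its brighter probe sets, were lower in the induced array. Ldhc and Slc25a31 are shown because their windows held the most motif matches among the testis genes. Capitals mark matches, on either strand, to TGACGT (within the cAMP response element, the site of CREM, which drives many spermatid genes), TCCCGC (an E2F site), CACGTG (an E-box) or GGGCGG (a GC box). Each line runs 5′ to 3′ on the strand of the gene and ends at the base before the start.
Cyct: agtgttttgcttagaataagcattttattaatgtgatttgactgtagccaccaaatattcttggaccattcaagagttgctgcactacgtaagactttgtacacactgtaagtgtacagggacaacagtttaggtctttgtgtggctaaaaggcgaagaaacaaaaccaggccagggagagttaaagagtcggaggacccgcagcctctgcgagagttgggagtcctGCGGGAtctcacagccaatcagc
Cycs: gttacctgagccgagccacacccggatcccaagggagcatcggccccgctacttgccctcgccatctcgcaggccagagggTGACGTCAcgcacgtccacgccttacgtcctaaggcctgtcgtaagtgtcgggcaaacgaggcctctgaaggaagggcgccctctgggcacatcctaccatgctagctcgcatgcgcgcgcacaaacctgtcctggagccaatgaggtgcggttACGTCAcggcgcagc
Ldhc: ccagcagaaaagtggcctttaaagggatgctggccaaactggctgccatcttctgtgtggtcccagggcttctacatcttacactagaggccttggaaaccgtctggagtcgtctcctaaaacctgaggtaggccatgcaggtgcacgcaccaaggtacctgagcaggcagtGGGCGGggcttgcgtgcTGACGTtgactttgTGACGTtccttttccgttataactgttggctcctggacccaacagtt
Slc25a31: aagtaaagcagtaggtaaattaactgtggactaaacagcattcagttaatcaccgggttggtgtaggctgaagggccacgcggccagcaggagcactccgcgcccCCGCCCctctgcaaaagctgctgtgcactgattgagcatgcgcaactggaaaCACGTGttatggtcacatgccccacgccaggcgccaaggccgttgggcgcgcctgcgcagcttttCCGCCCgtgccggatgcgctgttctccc
The windows are chr2:76360454-76360703 (minus strand) for Cyct, chr6:50566570-50566819 (minus) for Cycs, chr7:46861013-46861262 (plus) for Ldhc and chr3:40708621-40708870 (plus) for Slc25a31.

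CpG dinucleotides, the sites of DNA methylation, were counted in each window. The 8 testis windows had 0 to 18 CpGs with a median of 3.5, and the 11 somatic windows had 8 to 25 with a median of 15, against a median of 6 over all 32851 windows. These medians are over windows, so that genes with 2 starts count 2 times: Ldhc (8 and 3 CpGs), Gapdhs (1 and 0) and Ldha (25 and 9). At the first start alone the testis genes had 6 (Cyct), 8 (Ldhc), 3 (Pgk2), 1 (Gapdhs), 18 (Slc25a31) and 4 (Pdha2). The low testis median thus rests in part on the repeated genes. Slc25a31 was the one testis gene above the somatic median, with 18 CpGs. Cyct had 6, the median of all windows, and Cycs 23 (49.6% and 86.7% of all windows had fewer). Both groups overlapped, since Ldhc had 8 CpGs at its first start and Gapdh also 8. The 10 windows of the further testis isoforms described below had 0 to 22 CpGs with a median of 7, and Eno4 had 22.

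The motifs divided the genes in no simple way. TGACGT occurred 2 times before Ldhc and 3 times before Cycs, where 2 of the matches overlap as the palindrome TGACGTCA, and it occurs in 6.47% of all windows. The first window of Ldha, the somatic counterpart of Ldhc, held 2 as well. TCCCGC (16.9% of all windows) occurred once before each of Cyct, Ldha, Slc25a5 and Got1. CACGTG (6.02% of windows) occurred once before Slc25a31 and 2 times before Ldha. GGGCGG (32.7% of windows) occurred 2 times before Slc25a31 and Ldha and once before Ldhc, Pgk1 and Slc25a5. Pgk2, Pdha2 and Gapdhs held no match to these 4 motifs, nor did Ldhb, Gapdh, Slc25a4, Pdha1 and Got2. These are matches of letters and were not tied to binding in these cells.

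**Figure D1:**
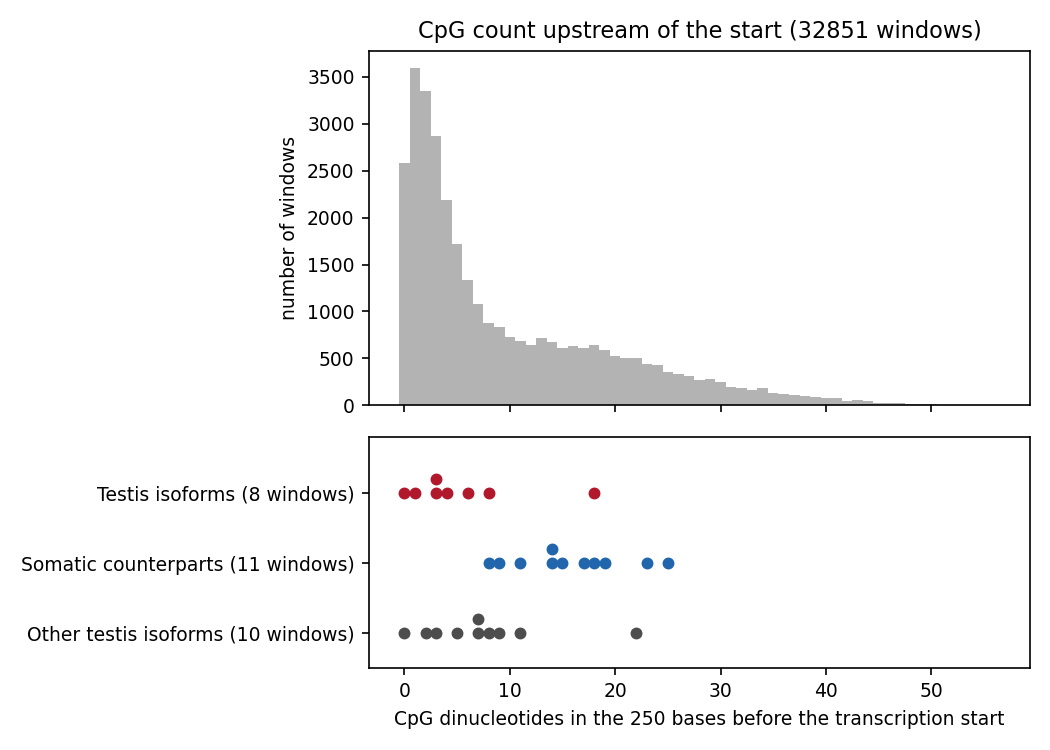
Number of CpG dinucleotides in the 250 bases before the transcription start, for all 32851 RefSeq windows (grey bars, upper panel) and for the windows of the testis isoforms, their somatic counterparts and further testis isoforms (1 point per window, lower panel). The testis isoforms lie between 0 and 8, apart from Slc25a31 at 18, the somatic counterparts between 8 and 25, and the further testis isoforms between 0 and 22.

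On the arrays 5 of the 7 testis genes stayed below the floor in both arrays and differed by no more than 0.33, while Cyct was lower and Got1l1 higher in the induced array. The call thus applied to 1 gene each way, where 0.958% of all 19938 genes were called lower and 0.256% higher (1.49% and 0.707% without the floor). In sign alone, 5 of the 7 were above 0 and 2 below, where 51.4% of all genes were above 0 and 48.6% below. Both genes were known from earlier results when the list was made, so nothing is read from these shares. Got1l1 reached the floor in the induced array alone, which ties its passing of the floor to its difference. In bulk RNA, fewer cells that use a gene and less RNA per cell cannot be told apart.

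Cyct, the testis form of the electron carrier cytochrome c, was at 7.24 in the induced and 9.12 in the non-induced array (log2 signal). The difference was -1.88, or 3.67-fold lower, and only 13 of the 19938 genes had a lower one. Cyct was above the floor in both arrays, and it was the one testis isoform of the 7 to reach the floor in the non-induced array. Among the 1994 genes of similar mean signal, 41 were lower by log2 1 or more, without regard to the floor.

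Cycs, the cytochrome c gene of other tissues, was also lower, at 11.09 against 12.01 by its brightest probe set (-0.93) and at 10.72 against 11.70 by the next (-0.98). Its remaining probe set was below the floor in both arrays and went the other way, at 5.33 against 4.25. Which of these probe sets read Cycs itself was not tested. The bright sets came close to log2 1 without reaching it. The difference of Cyct less that of Cycs was -0.95 on the log2 scale, and -1.60 with the mean of all Cycs probe sets. The coding sequences of these genes are closely related, and whether probes of one also read the other was not tested. Of the partners of cytochrome c, Hccs, the enzyme that attaches its heme, differed by 0.023, Cyc1, its electron donor in complex III, by 0.056, and Apaf1, which it activates in apoptosis, by -0.27. Casp9 differed by 0.11 and Aifm1 by -0.060. The signal of these partners thus did not differ as that of the cytochrome c genes did.

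Got1l1, an aspartate aminotransferase-like gene of the testis, was at 7.48 in the induced and 5.94 in the non-induced array. The difference was 1.54, or 2.91-fold higher, and 4 of the 19938 genes had a higher one. Among the 1993 genes of similar mean signal, 15 were higher by log2 1 or more, without regard to the floor. The difference of Got1l1 was 1.18 when 32 was added to every linear signal. Its somatic counterparts were bright in both arrays and differed little, with Got1, the cytosolic enzyme, at 10.65 against 10.42 (0.23) and Got2, the mitochondrial enzyme, at 10.19 against 10.08 (0.11). The difference of Got1l1 exceeded that of Got1 by 1.31 and that of Got2 by 1.44. Both enzymes belong to the malate-aspartate shuttle, which carries electrons into mitochondria. The 7 genes of this shuttle differed by -0.42 (Slc25a12, an aspartate-glutamate carrier) to 0.31 (Mdh2, the mitochondrial malate dehydrogenase).

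**Figure D2:**
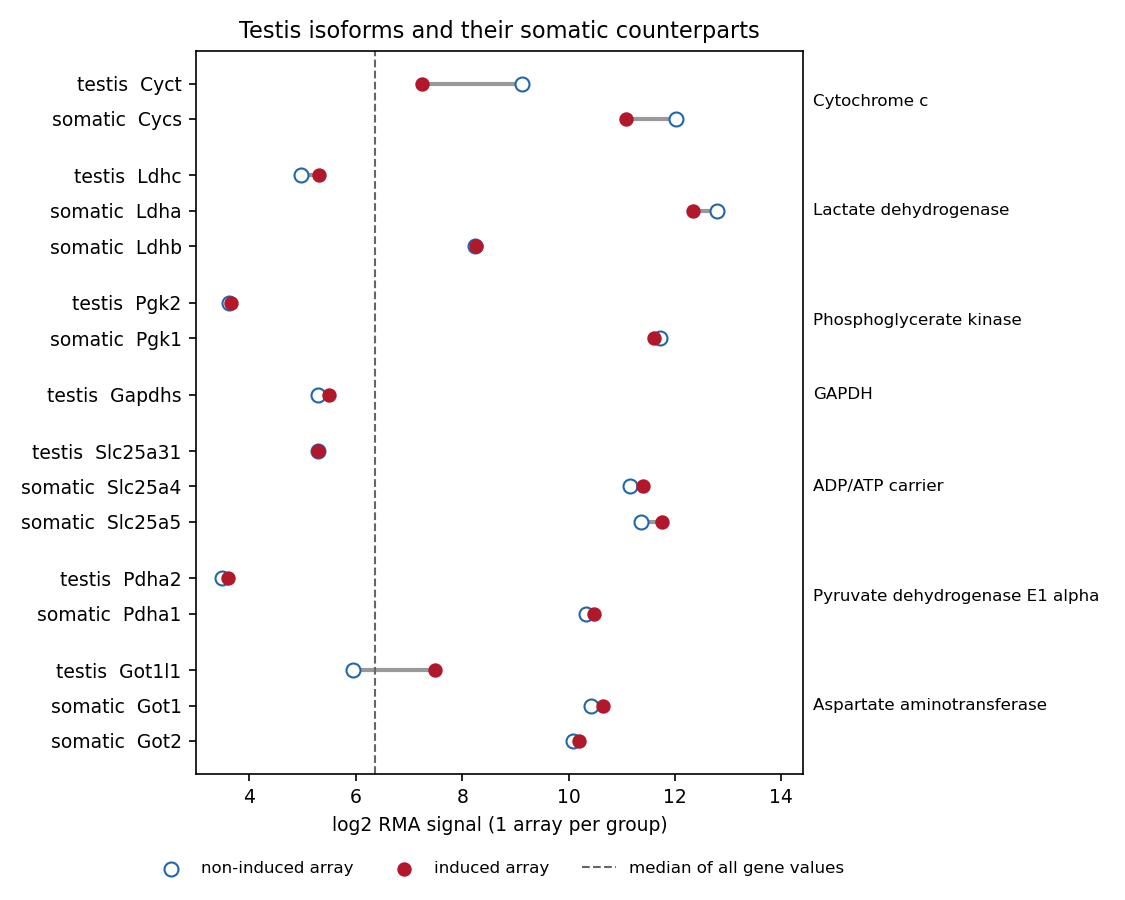
Log2 RMA signal of the testis isoforms and their somatic counterparts in the induced array (filled) and the non-induced array (open), 1 point per array, grouped by protein. Cyct (7.24 against 9.12) and Got1l1 (7.48 against 5.94) show the widest gaps, and the other 5 testis isoforms lie left of the dashed line, the median of all gene values (6.36).

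The glycolytic testis enzymes were low in both arrays. Ldhc was at 5.30 in the induced and 4.98 in the non-induced array (0.33). Gapdhs was at 5.50 against 5.29 (0.21), and Pgk2 at 3.65 against 3.61 (0.035). These 3 genes lay below the floor, and differences of this size are not read as changes in expression. The somatic lactate dehydrogenase genes were bright, with Ldha at 12.34 against 12.79 (-0.45) and Ldhb at 8.26 against 8.24 (0.019, and 0.48 by its other probe set). Ldha neighbours Ldhc on chromosome 7. Pgk1 was at 11.61 against 11.72 (-0.11). Gapdh had no probe set with its symbol alone and is not given. In the annotation Gapdhs overlaps Sbsn (6.67 against 6.29, a difference of 0.38), and whether their signals are shared was not tested.

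The mitochondrial testis isoforms other than Cyct were low as well. Slc25a31, the ADP/ATP carrier that germ cells need in meiosis, was at 5.29 in the induced and 5.30 in the non-induced array (-0.012). Its somatic relatives were higher in the induced array, Slc25a4 at 11.40 against 11.16 (0.24) and Slc25a5 at 11.76 against 11.37, with 0.37 to 0.39 over the 3 probe sets of Slc25a5. Pdha2, the catalytic E1 alpha subunit of the germ cell pyruvate dehydrogenase, was at 3.60 against 3.48 (0.12), and Pdha1, the X-linked form, at 10.48 against 10.33 (0.15). The difference of Pdha2 less that of Pdha1 was -0.027.

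**Figure D3:**
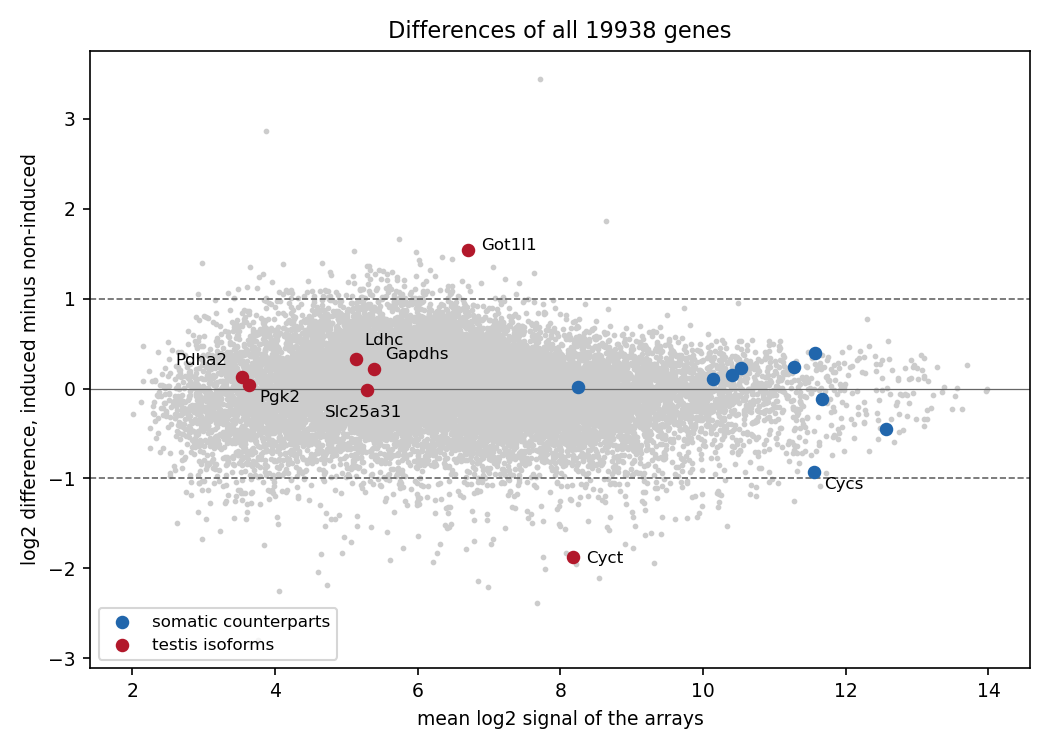
Log2 difference, induced minus non-induced, by the mean log2 signal for 19938 genes (grey), with the testis isoforms in red and the somatic counterparts in blue. Dashed lines mark log2 1 each way. Cyct (-1.88) and Got1l1 (1.54) lie beyond them, and Cycs (-0.93) just inside the lower one.

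Further testis isoforms of metabolic genes were listed by what is known of them, with earlier results of these arrays in view. Of 15 such genes 13 were measured, 9 were below 0 and 4 above, and 0 were called in either direction (0.256% and 0.958% of all genes, as above). Their median difference was -0.13, against 0.013 for all genes, and 11 of the 13 were below the floor in both arrays. The widest was Cox7b2, the testis form of a cytochrome c oxidase subunit, at 4.38 in the induced and 5.91 in the non-induced array (-1.53). Its signals were below the floor. Its somatic paralog Cox7b was at 11.58 against 12.10 (-0.52, and -0.86 by its other probe set). Cox6b2, another oxidase subunit of the testis, was above the floor at 7.83 against 7.96 (-0.13), with Cox6b1 at 0.18. Cox8c was below the floor in both arrays, at 6.19 against 6.30 (-0.12), with Cox8a at 0.20. G6pd2, a retrogene of glucose-6-phosphate dehydrogenase, was at 7.53 against 7.21 (0.33).

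The remaining further isoforms were below the floor. Among genes of sugar breakdown, the aldolase copies Aldoart1 (-0.090) and Aldoart2 (0.30), the enolase Eno4 (0.58), the lactate dehydrogenase Ldhal6b (0.16), the transketolase Tktl2 (-0.13) and the glycerol kinase Gk2 (-0.46) differed in both directions. Oxct2a, which uses ketone bodies, was at -0.48, Acsbg2, which activates fatty acids, at -0.30 and Prps1l1, which makes the ribose donor of nucleotides, at -0.55. Their somatic paralogs differed by 0.19 (Aldoa), 0.013 (Tkt), 0.32 (Oxct1), 0.59 (Acsbg1) and -0.33 (Prps1).

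The pathways that these isoforms serve were then described by their somatic genes, most of which are bright. Of the 1994 brightest genes 39.8% were above 0 and 60.1% below. No gene of these lists was called. Of all genes 0.256% were called higher and 0.958% lower, so that a count of 0 is near the background. Of 13 glycolysis genes 7 were above 0 and 6 below, from -0.48 for the glucose transporter Slc2a1 and -0.46 for Tpi1 to 0.55 for Aldoc (median 0.0075). Of 8 genes of lactate handling 5 were above 0, and the transporters Slc16a3 and Slc16a7 lay at either end, at -0.56 and 0.89, the latter below the floor. Of 13 genes of the pyruvate dehydrogenase complex, its regulators and pyruvate import 10 were below 0, with a median of -0.31. Pdhx, which holds the E3 subunit, was at 7.82 against 8.61 (-0.79), Pdhb at 10.75 against 11.29 (-0.54) and the pyruvate carrier gene Mpc1 at 7.68 against 8.20 (-0.52), while Pdha1 was above 0. Of 10 genes of adenine nucleotide exchange 9 were above 0, with a median of 0.25. Ckb, the brain-type creatine kinase, was at 0.47, Ppif, the mitochondrial cyclophilin, at 0.45, and Vdac3, an outer membrane channel, at -0.12.

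**Figure D4:**
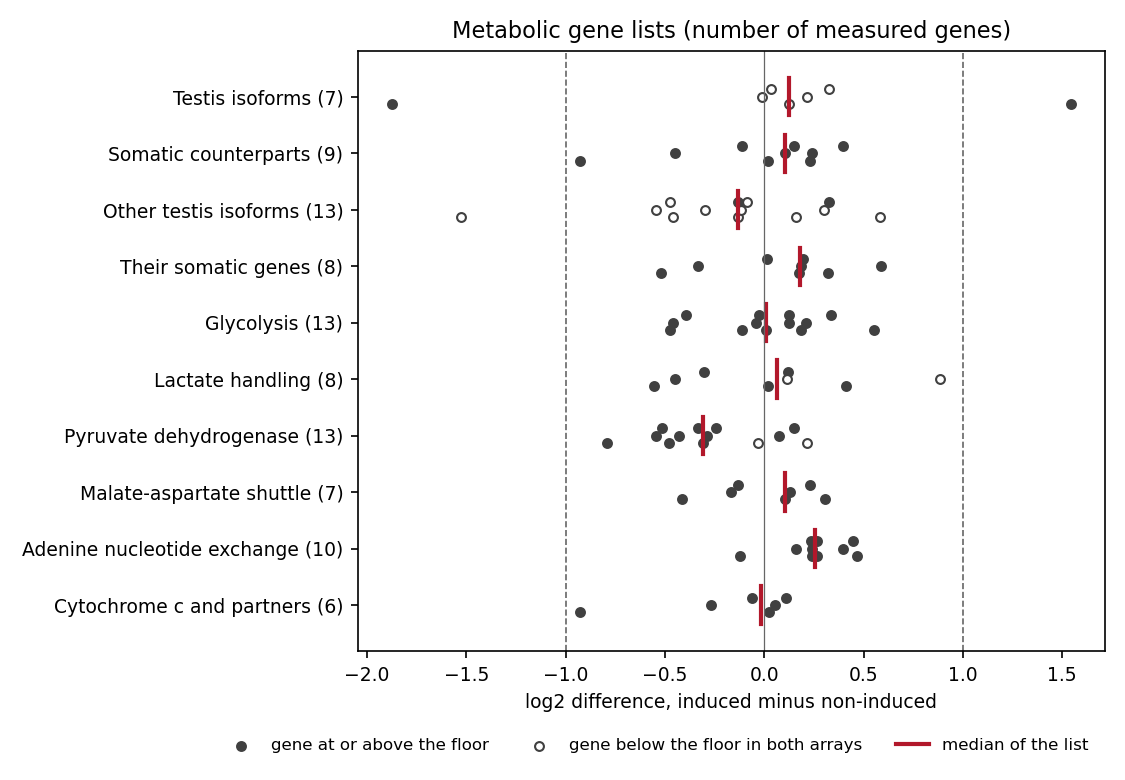
Log2 difference, induced minus non-induced, of every measured gene of 10 metabolic lists (points, filled at or above the floor and open below it) with the median of each list (red bar). Cyct and Got1l1 are the outermost points, and the medians run from -0.31 for pyruvate dehydrogenase to 0.25 for adenine nucleotide exchange.

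The genes beside the testis isoforms on the chromosome were examined next. The 4 measured protein-coding neighbours of Cyct (Ttc30a1, Pde11a, Rbm45 and Osbpl6) had differences from -0.24 to 0.51. Those of Got1l1 (Brf2, Rab11fip1, Eif4ebp1 and Tex24) had -0.37 to 0.48. Over all 28 neighbours of the 7 genes the range was -0.69 (Olfr137, beside Pgk2) to 0.82 (Bmpr1b, beside Pdha2), and 0 were called, where 0.256% of all genes were higher and 0.958% lower, so that a count of 0 is near the background.

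The genes closest to Cyct in both signals were Efcab7, a ciliary gene (7.24 against 9.20), and Dppa3, a gene of pluripotent and primordial germ cells (7.16 against 8.99). Those closest to Got1l1 were Myod1, the muscle regulator (7.21 against 6.02), and Farp1 (7.28 against 6.14). Likeness was the distance between signals over 2 arrays, which was 0.083 for Efcab7 and 0.28 for Myod1.

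Genes used as markers of other cell types were set beside these results. Both samples were ES cells, and signal of such a marker does not show that its cell type was present. Of 9 spermatocyte markers 7 were below 0, with a median of -0.50, while Piwil1 (0.45) and Ccna1 (0.026) were above 0. Sycp3 (5.35 against 7.18) and Sycp1 (4.77 against 6.37), both of the synaptonemal complex, were called lower, as was Cyct. Sycp3 and Sycp1 reached the floor in the non-induced array alone, which ties their passing of the floor to their differences. Sycp1 did so by a narrow margin. Of all genes 0.958% were called lower, and the marker lists were chosen with earlier results known. The summed linear signal of the list was 566 in the induced and 907 in the non-induced array, and 4 of the 9 were below the floor in both. All 10 spermatid markers, Prm1 and Tnp1 included, were below the floor in both arrays, with summed signals of 423 and 413. Of 10 fibroblast markers 9 were above 0, with a median of 0.39 and summed signals of 1658 and 1279, and 5 of the 10 were below the floor in both. Fn1 was the brightest of them (9.85 against 9.48). Of 6 measured markers of testis somatic cells 3 were above 0, with a median of 0.0079 and summed signals of 448 and 431. The part of other cells in the differences of Cyct and Got1l1 was not tested.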

How the data were processed

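Total RNA (300 ng per array) of 1 induced and 1 non-induced ES cell sample was hybridized by the authors. The authors deposited log2 values, here from 1.36 to 14.5, made with RMA (background correction, quantile normalization and a summary over the probes of each set). Its version and the array annotation: not given in the sources used here. RMA compresses differences of dim genes, and arrays give no counting error, so that the number of arrays limits the precision. Of 35557 probe sets 21789 had 1 gene symbol in the platform annotation, 1621 several and 12147 none. Those with 1 symbol gave 19938 genes, named by gene identifier through RefSeq (GRCm38.p6, 21698 matched). The probe set with the highest mean stood for the 999 genes with several.

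Groups were taken from the sample labels. No test was made. The members and lists were chosen with earlier results of these data known. Named were the members, their somatic counterparts, other testis isoforms, neighbours and genes nearest in signal. Of each further list the genes with the widest differences were named, and some others. As alternatives, arrays were centred on their medians, or the data were treated with subtraction of a lowess trend (fraction 0.3), a second quantile normalization, a constant of 32 on the linear scale, the mean of probe sets, a size of log2 0.58, no floor, and a floor at the 75th percentile (7.64). The steps were run on simulated data, with noise narrower than the spread of the real differences and planted shifts wider than log2 1. That run checked the code and gives no error rate for the calls on these arrays. Neighbours were taken by gene order, and promoter windows and motif counts from RefSeq sequences. The scripts ran in Python 3.11.15 with pandas 2.3.3, numpy 2.4.6 and, for the lowess trend, statsmodels 0.14.6, and plots were drawn with matplotlib 3.10.9.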

Additional observations from a re-analysis of the deposited data

How the results depend on the processing

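Under the 5 alternatives of scaling and probe sets Cyct was at -1.97 to -1.68 and Got1l1 at 1.18 to 1.54, so that both stayed past log2 1. With the constant of 32 the difference of Got1l1 was 1.18, its excess over Got1 0.95 and over Got2 1.07. With the higher floor 0 of the 7 testis genes were called higher, because Got1l1 did not reach it. With the mean of probe sets Cyct differed from Cycs by -1.60, since the dim probe set of Cycs went the other way. The sign of Pgk2 turned after centring (-0.064). The median of all genes was 0.099 higher in the induced array before centring.

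Over all genes, against 51 higher and 191 lower, centring gave 25 higher and 268 lower, the constant 10 and 108, a size of log2 0.58 568 and 904, no floor 141 and 297, and the higher floor 8 higher. After centring Cycs was also called lower, and without a floor Cox7b2. At a size of log2 0.58 Cycs and Pdhx were lower and Acsbg1 higher. Against 2 spermatocyte markers lower, the constant gave 1, the higher floor 0, and the mean of probe sets and the size of log2 0.58 gave 3 each.

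The other member differences, testis less somatic differences and list medians moved by less than 0.25, a tolerance set from the interquartile range of all gene differences. So did the neighbours, except Olfr137 (-0.37), Crisp3 (-0.13) and Bmpr1b (0.23) with the constant. Differences of other single genes, such as Cox7b2, Sycp1 and Sycp3, were not followed under the alternatives of scaling, and those of dim genes may move by more. No paired analysis was possible because each group held 1 array. With no replicate, no error could be given for any difference.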
